A study of Mus musculus with 4 samples.

Results

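The nuclei described here are Pvalb type interneurons of the mouse brain, 553 of the 52132 nuclei kept in 4 single-nucleus RNA libraries. They were chosen by their unique molecular identifier (UMI) counts, that is, by the number of distinct transcripts counted per nucleus. A nucleus was a member when it held at least 1 UMI of *Gad1* or *Gad2*, at least 2 of *Sox6* and at least 4 of *Pvalb*, *Eya4* and *Btbd11* together in at least 2 of these 3 genes. It also had to hold 0 UMIs of *Sst* and of *Vip*, at most 2 of *Adarb2* and at most 1 of *Slc17a7*. These 10 genes define the members, so their levels are given as a description and were not tested.

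The brains came from untreated 2-month-old female mice of strain C57/BL6, either WT or *Csf1r*+/- (HET, 1 intact allele of the colony-stimulating factor 1 receptor in every cell). The study asked which deficit of the microglia comes first when the dose of this gene is lowered, and how that bears on other cells of the brain. Comparisons of genotype rest on 2 WT and 2 HET libraries, and a further library of each genotype was not analysed here. Nuclei were taken without detergent from brains rinsed of blood and depleted of myelin debris, and the labels name no region beyond brain. By the study's account each library is a separate mouse, so the spread between libraries includes animal and preparation together.

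Interneurons that make parvalbumin release GABA onto the cell bodies, proximal dendrites or axon initial segments of their targets. They fire brief spikes at high rates, which relies on quickly closing Kv3 potassium channels, and they use the calcium sensor synaptotagmin 2 for fast release. Like the interneurons that make somatostatin, they arise in the medial ganglionic eminence and keep *Sox6* and *Lhx6*, whereas Vip interneurons arise in the caudal eminence and express *Adarb2* and *Prox1*. The neuregulin receptor *Erbb4* helps to form the excitatory synapses they receive, and many are wrapped in a perineuronal net of aggrecan and brevican. Their energy demand is high, and the coactivator *Ppargc1a* is a known regulator of their mitochondrial genes.

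The libraries held 142 members in WT replicate 1, 131 in WT replicate 2, 123 in HET replicate 1 and 157 in HET replicate 2, and all values by library below keep this order. Their median UMIs per nucleus were 7436.5, 6391, 8758 and 8187, and their summed UMIs 1198686, 913245, 1246859 and 1403507. The HET members were thus deeper than the WT members in both libraries. No cell barcode of a member occurred in another library, whereas 33 to 68 barcodes per pair of libraries were shared among all kept nuclei. Levels are given as CPM, the gene's summed UMIs scaled to a common total of UMIs per library and type. They come from transcript ends and are not corrected for length, so they compare samples for 1 gene and not genes with each other.

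Among the rule genes, *Sox6* stood at 1034, 1070, 1063 and 1134 CPM and *Btbd11* at 713, 763, 753 and 773 CPM. *Eya4*, a transcriptional coactivator, stood at 478, 450.0, 468 and 467 CPM. *Pvalb* itself was sparse, at 44.2, 88.7, 76.2 and 44.9 CPM, and was counted in 44, 63, 62 and 53 members. In all, 149 members held all 3 markers, 331 held *Eya4* and *Btbd11* without *Pvalb*, 68 held *Pvalb* and *Btbd11*, and 5 held *Pvalb* and *Eya4*. Most members therefore met the rule through genes other than *Pvalb*. A further 767 nuclei missed the rule only for too few marker UMIs, 102 only for *Sox6* and 68 only for an *Sst* UMI.

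The label was checked with 12 markers that the rule did not use, and all 12 were detected in every library. Detection alone is no check, since the Sst type nuclei defined below held all 12 too. By level the 12 summed to 21203 CPM on average in the members, of which *Erbb4* alone held 12861 CPM, so the sum rests largely on that gene. The 12 summed to 7762 CPM in Sst type, 11493 CPM in Vip type and 2491 CPM in all other nuclei. Gene by gene, 9 of the 12 were higher and 3 lower in the members than in Sst type, and 12 were higher and 0 lower than in Vip type. Just inside the marker threshold, 55 members with 4 marker UMIs held *Erbb4* at 10562 CPM and *Syt2* at 97.3 CPM. Just outside it, 43 nuclei with 3 marker UMIs in at least 2 genes held *Erbb4* at 8919 CPM and *Syt2* at 73.8 CPM. All members together stood at 12951 CPM for *Erbb4*. The 4 markers of chandelier cells (*Vipr2*, *Unc5b*, *Pthlh* and *Nkx2-1*) summed to 4.17, 6.57, 7.22 and 5.70 CPM, each under 5 CPM on average. The label as Pvalb type interneurons thus matched most of the 12 markers, and chandelier cells could not be told from them by these genes. Ordered by UMIs, which also follow transcript length, the leading genes were *Malat1*, *Erbb4*, *Rbfox1*, *Meg3*, *Cntnap2*, *Lsamp*, *Nrxn3*, *Nrg3*, *Dlg2* and *Galntl6*.

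WT replicate 2 stood apart from the other libraries in its content of other cells' transcripts. The 7 oligodendrocyte lineage markers summed to 76.8, 448, 101 and 48.5 CPM in the members, with *Mbp* the most abundant (76.2 CPM on average), while *Pdgfra* and *Cspg4* were each under 5 CPM on average. The 7 astrocyte markers summed to 104, 318, 94.6 and 78.4 CPM, with *Slc1a2* the most abundant, whereas the defining genes *Aqp4*, *Gja1* and *Gfap* were each under 5 CPM. Endothelial and mural markers summed to 3.34, 42.7, 0 and 1.43 CPM. Transcripts of 80 ribosomal protein genes summed to 1125, 2470, 1217 and 1006 CPM, and the median mitochondrial share was 0.161%, 0.597%, 0.307% and 0.173%. The ribosomal sum in all other nuclei was 1584, 3056, 1514 and 1267 CPM, so the same library was highest outside the members as well. Microglia markers summed to 25.03, 41.6, 41.7 and 59.1 CPM, mostly *P2ry12*, while *C1qa* and *Tmem119* averaged 1.81 and 0.178 CPM.

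The members fell into 9 subclusters, which were formed from the members' own transcripts and are described without a test. Subcluster 1 (109 nuclei) was led by *Il1rapl2*, a synaptic adhesion receptor, at 4744 CPM against 1155 CPM in the other members. Subcluster 2 (102 nuclei) was led by *Sema5a* and *Cntn5*, and *Cntn5*, a contactin, stood at 9354 against 4104 CPM. Subcluster 3 (93 nuclei) was led by *Col16a1* and *Olfm3* and held the net component *Acan* at 36.3 against 9.82 CPM. Subcluster 4 (63 nuclei) was led by the long noncoding *Gm32647* at 614 against 61.6 CPM and by *Pcdh17*, a protocadherin, at 465 against 142 CPM. These 4 subclusters were found in every library.

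Smaller groups carried sharper gene sets. Subcluster 5 (58 nuclei) held the calcium buffer *Calb1* at 204 against 22.7 CPM, *Nxph2* at 333 against 39.0 CPM and the growth factor *Igf1* at 56.1 against 4.44 CPM. Subcluster 7 (46 nuclei) held the muscarinic receptor *Chrm2* at 245 against 55.4 CPM, the laminin *Lama3* at 189 against 34.6 CPM and the collagen *Col24a1* at 79.3 against 8.77 CPM. In this subcluster 82.6% of the nuclei held *Pvalb* and 28.3% held *Eya4* (60.6 against 507 CPM), so most of its nuclei met the rule through *Pvalb* and *Btbd11*. In subcluster 9 (15 nuclei; 1, 2, 4 and 8 by library) the Sst type genes *Synpr* and *Grin3a* stood at 1377 and 985 CPM against 31.9 and 37.7 CPM. Those 15 nuclei met the rule with no *Sst* UMI although their list of Sst type markers summed to 1078 CPM.

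Subclusters 6 and 8 stood apart by high levels of genes known from other cells. Subcluster 6 (51 nuclei) was led by *Hs3st4*, *Khdrbs2*, *Nrp1* and *Gm28928* and had a median of 12594 UMIs. Its 8 excitatory neuron markers summed to 611 CPM, against 297 CPM on average over the members of a library. Its 10 subpallial GABA neuron markers, which include *Foxp2* and *Meis2*, summed to 563 CPM, against 183 CPM on average. Subcluster 8 (16 nuclei, 11 of them in WT replicate 2) had *Prr5l*, *St18*, *Gjc3* and *Mog* among its leading genes, which are known from oligodendrocytes, whose markers summed to 2598 CPM. High doublet scores by Scrublet marked 64.7% of subcluster 6 and 56.3% of subcluster 8, against 0% to 6.67% in the other subclusters. A doublet is a droplet with more than 1 nucleus. Together both groups held 67 members (18, 23, 13 and 13 by library) and 17.2% of the members' UMIs. They were kept in the main values, and counts of called genes are also given without them.

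**Figure D1:**
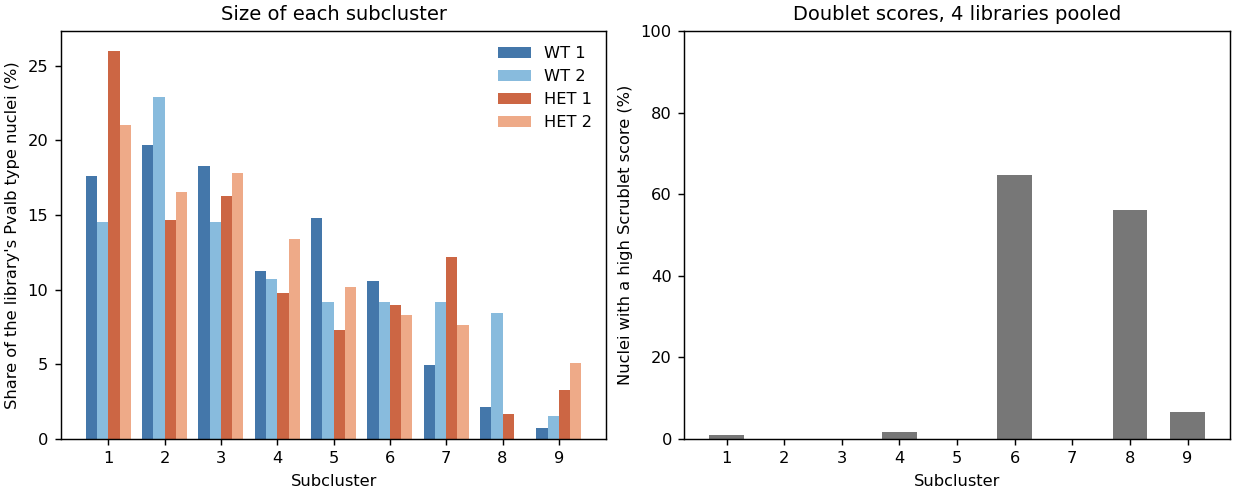
Left, the share of each library's Pvalb type nuclei (%) in subclusters 1 to 9, with 1 bar per library. Right, the share of each subcluster's nuclei (%) with a high Scrublet score, where subclusters 6 (64.7%) and 8 (56.3%) stand above the others; subcluster 8 has no nuclei in HET replicate 2.

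Against Sst type interneurons, the nearest type by origin, the members held more transcripts of the Kv3 channel *Kcnc1*, of GABA-A receptor subunits such as *Gabrg3*, and of *Erbb4*. They held fewer transcripts of reelin and the glutamate receptor *Grm7*. Sst type nuclei were chosen by at least 2 UMIs each of *Sst* and *Sox6* with the same limits on *Vip*, *Adarb2* and *Slc17a7*, and numbered 486 (124, 161, 96 and 105 by library). Their median UMIs were 5670.5, 5866, 8391.5 and 6849. UMIs were summed per library and type and tested in edgeR with the library as a block. Of 7944 genes tested, 312 (3.93%) were higher and 448 (5.64%) lower in the members, at an adjusted p under 0.05 and at least a 2-fold change. The median log2 difference over all genes tested was -0.0033, and 870 genes were called without subclusters 6 and 8.

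*Erbb4*, the neuregulin receptor, stood at 13636, 11612, 13037 and 13161 CPM in the members and 2100, 1681, 1300 and 1189 CPM in Sst type nuclei. The 2 types did not overlap in any library, and the log2 difference was 3.07 (SE 0.09, edgeR adjusted p = 6.1e-17). A gene that reached the detection limit (10% of nuclei) in 1 type alone entered the test only through that type. Lists are therefore counted over genes that reached it in both types, of which 2.58% were higher and 3.18% lower among all genes tested. Of the 12 Pvalb type markers outside the rule, 10 reached it in both types, and 4 of these were called higher and 0 lower (*Erbb4*, *Cntnap4*, *Kcnc1* and *Ppargc1a*). *Syt2*, the fast calcium sensor, was at 129 ± 19.1 CPM (mean ± SD, n = 4) against 5.59 ± 6.27 CPM, and *Cntnap4*, a synaptic adhesion protein, at 922 ± 119 against 281 ± 99.8 CPM. *Syt2* and *Tac1*, the precursor of substance P, reached the detection limit in the members alone. *Lhx6* (39.5 ± 8.11 against 44.4 ± 7.91 CPM), *Nxph1*, *Satb1*, *Kcnc2* and *Ank1* were among those that did not pass both thresholds.

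**Figure D2:**
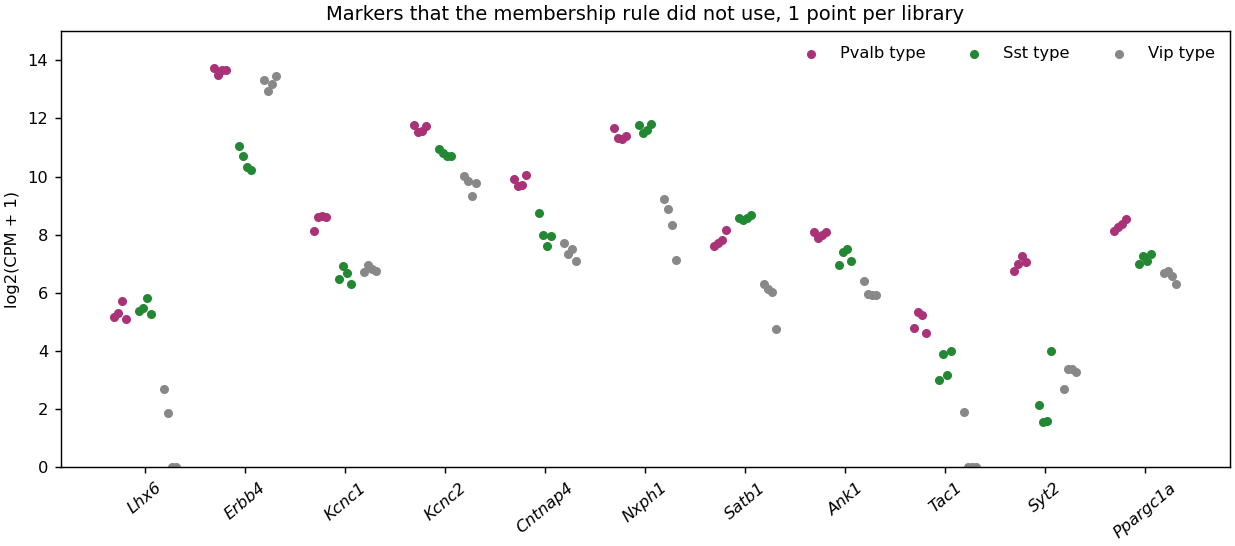
Levels of 11 of the 12 Pvalb type markers that the membership rule did not use, as log2(CPM + 1), with 1 point per library for Pvalb, Sst and Vip type nuclei. *Syt2* separates the Pvalb type (105.9 to 152 CPM) from both other types, whereas *Erbb4* separates it from the Sst type and lies near the Vip type, and *Lhx6* overlaps between the Pvalb and Sst types.

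Of 14 channel genes linked to fast spiking, 13 reached the detection limit in both types, and 4 of these were called higher and 0 lower. The Kv3 subunit *Kcnc1* stood at 280.3, 389, 399 and 388 CPM against a mean of 97.5 ± 18.5 CPM in Sst type nuclei, a log2 difference of 1.90 (SE 0.11). *Kcns3*, a silent subunit that modifies potassium channels, differed by 1.05 (SE 0.13). For *Kcna1*, the axonal Kv1.1 channel, the log2 difference was 1.21 (SE 0.12). *Kcnip2*, an auxiliary subunit of Kv4 channels, was at 92.7 ± 6.14 against 11.4 ± 5.18 CPM and reached the limit in the members alone. The sodium channel *Scn1a* (658 against 386 CPM) and the Kv3 subunit *Kcnc2* (3234 against 1784 CPM) had higher means but less than a 2-fold difference. *Kcnip1* was the only 1 of the 14 with a lower value, 501 against 636 CPM.

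Among 12 GABA-A receptor subunits, 10 reached the detection limit in both types, with 4 called higher and 1 lower. *Gabrd*, the delta subunit of receptors outside synapses, was at 43.4, 70.1, 79.4 and 67.7 CPM against 7.71 ± 4.88 CPM and reached the limit in the members alone. *Gabrg3* (2572 against 747 CPM) and *Gabrb2* (693 against 282 CPM) were also among the higher subunits. *Gabra2* (86.4 ± 23.3 against 335 ± 30.0 CPM) was lower, and *Gabrg1* (4.27 ± 3.11 against 43.9 ± 6.91 CPM) reached the limit in the Sst type alone. The members thus differed from Sst type nuclei in subunit composition and not in a single direction.

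Of 17 glutamate receptors, which all reached the limit in both types, 0 were higher and 5 lower. *Grm7*, a presynaptic metabotropic receptor, stood at 740 ± 82.8 against 2486 ± 147 CPM (log2 difference -1.75, SE 0.07). *Grin3a*, an NMDA receptor subunit and itself an Sst type marker, was at 67.2 ± 24.3 against 1004 ± 136 CPM. *Grik3*, a kainate receptor subunit, was at 100.5 ± 12.1 against 360.3 ± 13.9 CPM. The AMPA receptor subunit *Gria4* (2208 against 1583 CPM) and *Grm5* (2239 against 1918 CPM) had higher means without reaching a 2-fold difference.

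Of 15 genes of the neuregulin and synaptic adhesion list, 5 were higher (*Erbb4*, *Cntnap4*, *Lgi2*, *Il1rapl1* and *Il1rapl2*) and 1 lower (*Slitrk3*). Of the perineuronal net genes, 4 of 10 were tested and *Bcan*, brevican, which reached the limit in the members alone, was at 57.5 ± 6.62 against 8.24 ± 2.24 CPM. *Acan*, aggrecan, was counted at 12.5, 9.85, 12.8 and 17.8 CPM in the members and 1.11 ± 0.942 CPM in Sst type nuclei, under the detection limit for a test. Of 8 genes of energy supply, *Ppargc1a* (320 ± 38.6 against 144 ± 15.1 CPM) and the nuclear receptor *Esrrg* (1064 ± 52.6 against 230 ± 41.6 CPM) were higher, whereas 0 of 56 tested respiratory chain genes passed. Of 11 genes of calcium binding and release that reached the limit in both types, *Calb1* and the release factor *Unc13c* were lower. Of 50 such ribosomal protein genes, 5 were lower. Most of this class leaned the same way, since 69 of all 70 tested had a negative log2 difference, with a median of -0.64.

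The 10 largest increases past the thresholds, outside the rule genes, were *Prss23*, *Mybpc1*, *Adamtsl5*, *Fam129a*, *Pde5a*, *Syt2*, *Adamts15*, *Gm26633*, *Cemip* and *Lrmda*. Among them *Cemip* alone reached the detection limit in both types (91.9% and 17.3% of nuclei). The others reached it in the members alone, so they entered the test only through that side and are given by their values. *Prss23*, a secreted serine protease, was counted with 109 UMIs in the members and 1 UMI in Sst type nuclei, a ratio of CPM of 85.9 with a 95% exact counting interval of 15.1 to 3425. *Pde5a*, the cyclic GMP phosphodiesterase, stood at 214, 160, 186 and 183 CPM against 3.47, 5.91, 11.95 and 3.45 CPM. *Cemip*, a hyaluronan-degrading protein, stood at 666, 587, 706 and 656 CPM against 48.6, 47.3, 46.8 and 29.9 CPM, a log2 difference of 3.91 (SE 0.12). *Mybpc1*, a myosin-binding protein better known from muscle, stood at 47.5, 58.0, 84.2 and 67.7 CPM against 1.36 ± 1.47 CPM. In each of these genes the 4 members' libraries lay above the 4 Sst type libraries. The genes were chosen as the largest changes with the same sign in 4 libraries, so this separation is no further evidence.

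The 10 largest decreases were *Pcdh18*, *Npy*, *Nos1*, *Elfn1*, *Trpc6*, *Stac*, *L3mbtl4*, *Shisa6*, *Plpp4* and *Man1a*. *Shisa6* reached the detection limit in both types (10.7% and 77.0% of nuclei). *Pcdh18*, *Npy*, *Nos1*, *Elfn1*, *Trpc6*, *Stac*, *L3mbtl4* and *Plpp4* reached it in the Sst type alone. They entered the test only through that side and are given by their values. *Npy*, neuropeptide Y, was at 2.50, 15.3, 4.81 and 11.4 CPM in the members and 336, 404, 342 and 272 CPM in Sst type nuclei. *Nos1*, the neuronal nitric oxide synthase, was at 4.54 ± 2.26 against 146 ± 26.2 CPM, and *Elfn1*, a postsynaptic organizer, at 5.84 ± 0.859 against 150 ± 15.3 CPM. *Man1a*, a mannosidase of the Golgi, was at 33.9 ± 9.33 against 573 ± 41.5 CPM (log2 difference -4.06, SE 0.12). *Reln*, reelin, from the list of basket cell genes, was at 91.9 ± 10.96 against 838 ± 115 CPM. *Sst*, which chose both types, is known to occur with *Npy* and *Nos1* in some cells, so these genes are not independent of the choice.

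Against Vip type interneurons the members held more transcripts of *Nxph1* and *Kcnc1* and fewer of *Dlx1*. *Lhx6* reached the detection limit in the members alone, and *Prox1* and *Crh* in the Vip type alone. These 3 genes are therefore given below by their values. Vip type nuclei held at least 2 UMIs of *Vip* and 3 of *Adarb2* with no *Sst* or *Pvalb* UMI, and numbered 411 (118, 142, 89 and 62 by library), with median UMIs of 4739.5, 4371, 5476 and 5614.5. Of 7801 genes tested, 455 (5.83%) were higher and 600 (7.69%) lower in the members by edgeR under the same thresholds, and the median log2 difference over all of them was 0.02. Without subclusters 6 and 8, 1157 genes were called. Both type comparisons use the same Pvalb type sums, so they are given side by side and not as independent evidence.

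Of the 12 Pvalb type markers outside the rule, 8 reached the detection limit in both types and 7 of these were higher than in Vip type nuclei, beside 3.44% higher and 5.12% lower of all genes that reached it in both. The exception was *Erbb4*, at 12861 ± 872 against 9719 ± 1453 CPM. The other 4 reached the limit in the members alone, among them *Lhx6*, *Syt2* and *Tac1*. *Lhx6*, the homeodomain factor of the medial eminence, was at 39.5 ± 8.11 against 2.05 ± 2.64 CPM, and *Nxph1*, a neurexin ligand, at 2778 ± 342 against 385 ± 197 CPM. Of 12 fast-spiking channel genes that reached the limit in both types, 6 were higher and 0 lower. Of 49 ribosomal protein genes that reached it in both, 0 were higher and 7 lower. Of all 62 ribosomal protein genes tested, 61 had a negative log2 difference, with a median of -0.83. Genes of the caudal interneuron list reached the detection limit mainly through the Vip type side, so they are given by their values alone. Of 10 tested transcription factors of the ganglionic eminences, 4 reached the limit in both types, of which *Satb1* was higher and *Dlx1* lower. *Prox1*, a homeodomain factor of caudal interneurons, stood at 2.50, 7.66, 0 and 0.713 CPM against 220, 206, 196 and 273 CPM.

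The 10 largest increases over Vip type nuclei were *Gm28501*, *Adamtsl5*, *Gm45025*, *Gm3985*, *Gm31218*, *Adamts15*, *Tac1*, *Nxph2*, *Fam129a* and *Mypn*. Most of these genes reached the detection limit in the members alone, so they entered the test only through that side and are given by their values. *Gm45025* lies within *Sox6* on the other strand (mm10 chromosome 7, 115995274 to 116014145), and *Sox6* was part of the rule, so its difference is not independent of the choice of nuclei. *Tac1* was counted with 147 UMIs against 2, a ratio of CPM of 38.1 (95% exact counting interval 10.4 to 317). The 10 largest decreases were *Crh*, *Tac2*, *Egfros*, *Egfr*, *Grpr*, *Prox1*, *Gm29683*, *Asic4*, *Cbln2* and *Prox1os*. Most of them reached the limit in the Vip type alone, so they too entered the test only through that side. *Crh*, corticotropin-releasing hormone, had 0 UMIs in the members and 248 in Vip type nuclei, so it was at least 160-fold lower, taking 3 counts over all members as the floor. *Egfr*, the epidermal growth factor receptor, stood at 1.67, 1.09, 4.81 and 0 CPM against 493, 341, 368 and 448 CPM. *Tac2*, the precursor of neurokinin B, had 1 UMI against 290.

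Within the members, the 222 nuclei with a *Pvalb* UMI were compared with the 331 without. Nuclei with *Pvalb* held fewer transcripts of *Dcc*, *Sema6d*, *Calb1* and *Cdh9*, also when both sides had to meet the rule in the same way. Median UMIs were 8266.5, 6670, 10225 and 8401 with *Pvalb* and 6991, 5721.5, 7995 and 7889 without, so *Pvalb* was found in the deeper nuclei of every library. Of 7909 genes tested with the library as a block, 15 (0.19%) were higher and 24 (0.303%) lower, at an edgeR adjusted p under 0.05 and at least a 1.5-fold change. Without *Pvalb*, a member had to hold both *Eya4* and *Btbd11*, so these 2 genes differ by rule and were not tested. The rule reaches further, since nuclei without *Eya4* could enter only through *Pvalb*. The comparison was therefore repeated, as a choice made after seeing the data, among the 141 nuclei with and the 331 without *Pvalb* that held at least 4 UMIs of *Eya4* and *Btbd11* together and at least 1 of each. Then 26 genes were called (4 higher and 22 lower), of which 12 were among the 39 of all members. Of the 20 genes named for the largest changes, 16 were tested there and 4 were called, all lower with *Pvalb*.

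The genes with higher levels on the Pvalb side were less firmly separated by *Eya4* and *Btbd11* alone, with fewer nuclei on that side. *Chrm2*, the muscarinic M2 receptor, stood at 130, 111, 106 and 82.8 CPM with *Pvalb* and 61.9, 49.2, 44.4 and 30.8 CPM without, a log2 difference of 1.19 (SE 0.17, edgeR adjusted p = 0.00023). By *Eya4* and *Btbd11* alone it stood at 46.8, 78.2, 33.3 and 56.8 CPM with *Pvalb*, which overlapped with the nuclei without, and the log2 difference was 0.17 (SE 0.25, edgeR adjusted p = 0.935). *Lama3* was at 72.5 ± 23.0 against 29.6 ± 11.8 CPM, a log2 difference of 1.24, which was 0.53 (SE 0.30) by *Eya4* and *Btbd11* alone. *Gfra1*, the co-receptor of glial cell line-derived neurotrophic factor, stood at 52.4 ± 6.05 against 19.4 ± 4.18 CPM, a log2 difference of 1.40, which was 1.10 (SE 0.29, edgeR adjusted p = 0.12) by *Eya4* and *Btbd11* alone. *Col24a1* was at 26.9 ± 11.4 against 4.48 ± 3.57 CPM, and by *Eya4* and *Btbd11* alone it was under the detection limit for a test. The other higher genes named by the rule were *Kctd7*, *4930555F03Rik*, *Gm45323*, *Sorcs1*, *Hs3st4* and *Junos*, of which *Hs3st4* had 84.7% of its UMIs in subclusters 6 and 8. By *Eya4* and *Btbd11* alone, 6 of these 10 higher genes were tested and 0 were called, although all 6 log2 differences stayed positive. *Sorcs1* went from 1.12 to 0.64 (SE 0.21), *Hs3st4* from 1.09 to 0.66 (SE 0.22) and *Junos* from 0.98 to 0.74 (SE 0.27).

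*Dcc*, the netrin receptor, stood at 286, 367, 289 and 291 CPM with *Pvalb* and 877, 656, 505 and 527 CPM without, a log2 difference of -1.05 (SE 0.11, edgeR adjusted p = 2.3e-06). By *Eya4* and *Btbd11* alone it stood at 271, 489, 245 and 363 CPM with *Pvalb*, a log2 difference of -0.93 (SE 0.14, edgeR adjusted p = 0.00091). *Sema6d*, a semaphorin, was at 113 ± 49.4 against 278 ± 50.3 CPM, and its log2 difference was -1.38 in all members and -1.28 (SE 0.19) by *Eya4* and *Btbd11* alone. *Calb1* differed by -1.16 and -1.46 (SE 0.30) and the cadherin *Cdh9* by -0.84 and -0.68 (SE 0.14) in the same order. *Reln*, at 62.9 ± 18.1 against 119 ± 13.2 CPM, differed by -0.94 in all members and by -0.44 (SE 0.19) by *Eya4* and *Btbd11* alone, where its call was lost. *Nxph2* and *Nkain3*, which with *Calb1* were leading genes of subcluster 5, and *Klhl14*, *Sntg2* and *Ptprz1* were the other lower genes named. By *Eya4* and *Btbd11* alone these 5 were not called after adjustment, but their log2 differences stayed negative. They were -1.93 and -1.68 for *Klhl14*, -1.75 and -1.90 for *Sntg2*, -1.10 and -0.94 for *Nxph2* and -0.85 and -0.67 for *Ptprz1*, in all members and by *Eya4* and *Btbd11* alone, and -0.75 for *Nkain3* by *Eya4* and *Btbd11* alone. Of the 14 fast-spiking channel genes 0 were called in either direction, with a median log2 difference of 0.05, and of the 12 independent Pvalb type markers 0 were called. With 0.19% of all genes tested higher and 0.303% lower, these counts lie near the background. DESeq2 called 5 genes in place of 39, 43 were called without subclusters 6 and 8, and 10 without HET replicate 2.

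**Figure D3:**
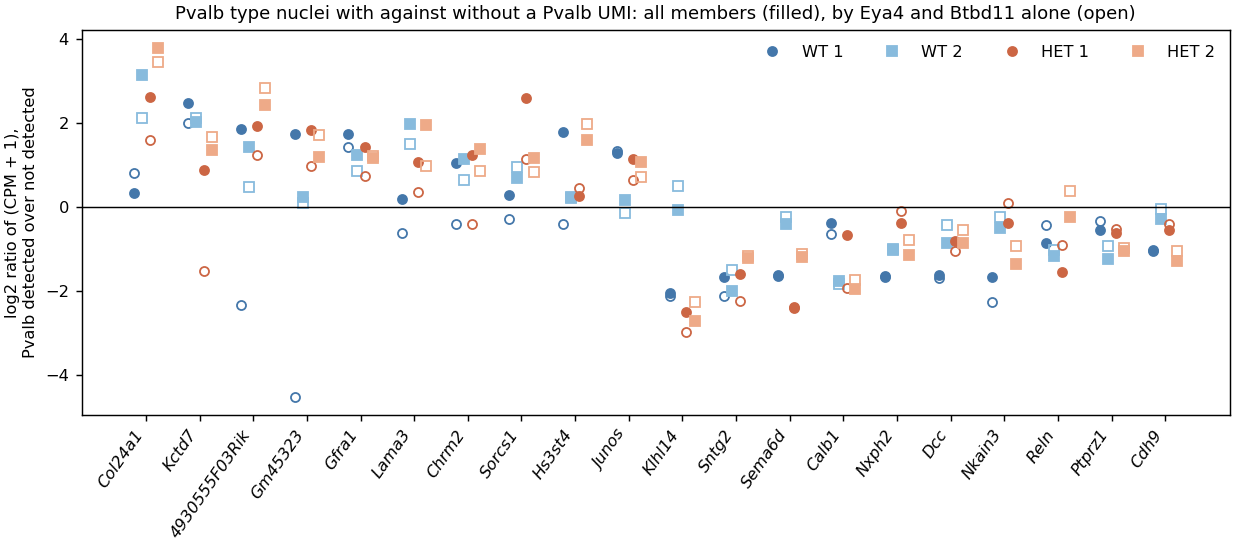
Log2 ratio of CPM + 1 between Pvalb type nuclei with and without a *Pvalb* UMI, with 1 point per library, for the 10 genes with the largest differences in each direction. Filled points are all members and open points the members that met the rule by *Eya4* and *Btbd11* alone; *Chrm2* falls from a log2 difference of 1.19 to 0.17 between them, whereas *Dcc* stays below 0 in every library.

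Members made up a larger share of the nuclei in both HET libraries than in both WT libraries. They were 0.881% and 0.859% of kept WT nuclei and 1.28% and 1.40% of kept HET nuclei, with 95% exact binomial (Clopper-Pearson) intervals of 0.743 to 1.04, 0.719 to 1.02, 1.07 to 1.53 and 1.19 to 1.64%. These intervals cover counting error only. The genotypes did not overlap, and the difference of 0.473 percentage points had a two-sided exact permutation p of 0.33, the smallest that 2 libraries against 2 can give. Sst type nuclei were 0.770% and 1.06% in WT and 1.001% and 0.939% in HET, and Vip type nuclei 0.732%, 0.931%, 0.928% and 0.554%, both overlapping between genotypes.

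The difference was also computed at equal depth. With each nucleus thinned to 3000 UMIs before the rule was applied and shallower nuclei left out, the shares were 0.416% and 0.360% in WT and 0.597% and 0.473% in HET, a difference of 0.147 percentage points. Thinning lowers every share, and as a ratio of HET to WT means the value was 1.54 for all kept nuclei and 1.38 after thinning. The thinned genotypes did not overlap, but their intervals of 0.311 to 0.545, 0.257 to 0.490, 0.442 to 0.788 and 0.347 to 0.631% overlapped. The nuclei left in numbered 12496, 11104, 8208 and 9716 by library. Among them, without thinning, the shares were 1.10%, 1.09%, 1.49% and 1.61%, a ratio of 1.41. As a share of nuclei with *Gad1* or *Gad2* and at most 1 *Slc17a7* UMI, members were 4.002% and 3.33% in WT and 5.39% and 7.68% in HET, a ratio of 1.78. Without subclusters 6 and 8 the shares were 0.770%, 0.709%, 1.15% and 1.29%. Nuclei of different brain regions were not told apart by the labels, and their part in the share was not tested.

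**Figure D4:**
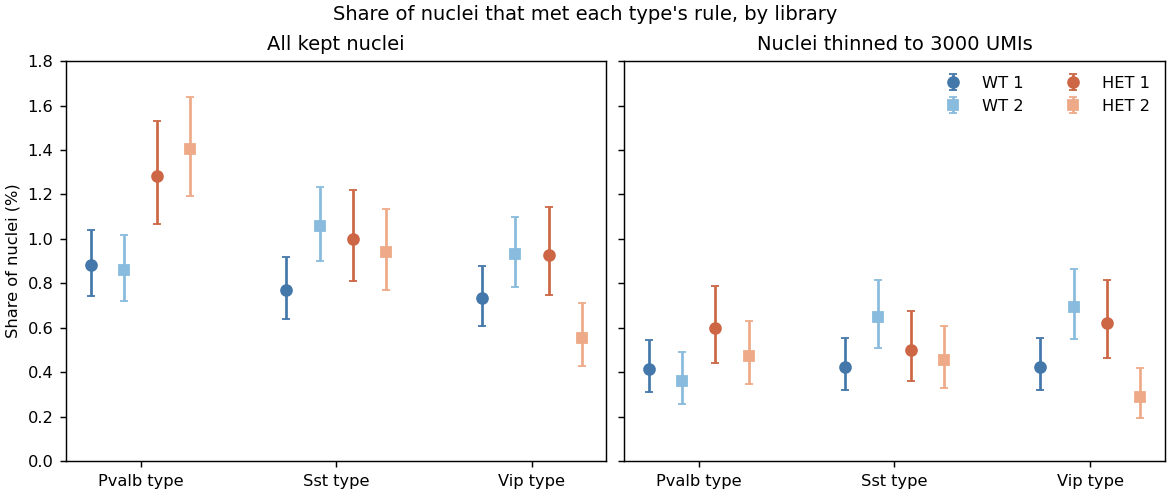
Share of nuclei (%) that met the rules of the Pvalb, Sst and Vip types in each library, for all kept nuclei (left) and for nuclei thinned to 3000 UMIs (right); bars are 95% exact binomial intervals. The HET points of the Pvalb type lie above the WT points on the left (1.28 and 1.40 against 0.881 and 0.859%), and the ratio of HET to WT means is 1.54 on the left and 1.38 on the right.

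*Csf1r*, the gene altered in the HET mice, was hardly counted in the members, with 4, 2, 5 and 6 UMIs (3.34, 2.19, 4.01 and 4.28 CPM), too few for a test. In all other nuclei its level was 3.04, 6.57, 6.72 and 6.39 CPM, so the libraries labelled HET were not the lower pair. These counts come from the transcript's end, and the altered part of the allele is not given in the sources used here, so they do not check the labels.

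Between genotypes, few genes differed in the members, and with all 4 libraries most of those were lower in HET. They included the long noncoding RNA *Gm28928*, the lysophospholipase *Enpp2* and the calcium-dependent phosphodiesterase *Pde1a*. At the study's threshold, an unadjusted p under 0.01, 16 genes (0.201%) were higher and 62 (0.779%) lower of 7961 tested by edgeR. In data simulated with 200 changed genes and the same spread for every gene, this threshold gave 55 false calls at a log2 change of 1 and 78 at 2. The count of 78 genes lies near the count of false calls in that simulation. Its spread was not taken from these libraries, so it does not give the number of false calls here. After adjustment 0 (0%) were higher and 2 (0.0251%) lower, with 345 genes at an unadjusted p under 0.05, and DESeq2 called 1 gene. The balance of directions turned without WT replicate 2, when 169 genes were higher and 111 lower at the unadjusted threshold. Without WT replicate 1, 60 were higher and 216 lower. Of the 78 genes, 77 had libraries that did not overlap between genotypes, as had 31.6% of all genes tested. The genes named below for the smallest p were picked from those without overlap, so that separation is no further evidence. Without subclusters 6 and 8, 51 genes passed the unadjusted threshold, 29 of them shared with the 78, and 0 passed after adjustment, with 280 genes at an unadjusted p under 0.05.

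*Gm28928* (mm10 chromosome 1, 124505757 to 124846039, minus strand) stood at 455, 428, 119 and 192 CPM, and both HET values lay well below both WT values. The log2 difference was -1.51 (SE 0.19, edgeR adjusted p = 0.0065). Subclusters 6 and 8 held 70.5% of its UMIs. Without them it stood at 129, 127, 68.8 and 94.9 CPM, in the same order of genotypes but closer together, with a log2 difference of -0.65 (SE 0.19, adjusted p = 0.999).

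*Enpp2*, which encodes autotaxin and lies on chromosome 15 (mm10, 54838901 to 54952892, minus strand), stood at 97.6, 90.9, 33.7 and 37.0 CPM. Both WT libraries lay above both HET libraries, and the log2 difference was -1.43 (SE 0.20, edgeR adjusted p = 0.015). Of its UMIs, 34.0% were in subclusters 6 and 8. Without them the values were 96.2, 49.6, 26.0 and 31.6 CPM, with a log2 difference of -1.40 (SE 0.31, adjusted p = 0.999). The call after adjustment was thus lost, and WT replicate 2 fell from 90.9 to 49.6 CPM.

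The other lower genes with the smallest p were *Pde1a*, *Hs3st4*, *St6galnac3*, *Nfia*, *Fth1*, *Sorcs3*, *Cst3* and *Pcsk2*. *Pde1a* was at 104, 132, 47.3 and 66.3 CPM, and 62.6% of its UMIs were in subclusters 6 and 8. *Hs3st4*, a heparan sulfate sulfotransferase, was at 224, 223, 60.1 and 129.7 CPM and had a log2 difference of -0.81 (SE 0.41, unadjusted p = 0.068) without these groups, against -1.24 (SE 0.24) with them. *St6galnac3*, a sialyltransferase, was at 64.2, 157, 33.7 and 37.8 CPM, and its log2 difference of -1.60 was -0.88 without WT replicate 2. It had 61.3% of its UMIs in subclusters 6 and 8, and without them its log2 difference was -0.76 (SE 0.30, unadjusted p = 0.024). The transcription factor *Nfia*, the sorting receptor *Sorcs3* and the prohormone convertase *Pcsk2* had 43.5%, 49.5% and 53.2% of their UMIs in subclusters 6 and 8. Without these groups the log2 difference of *Nfia* went from -1.14 to -0.53 (unadjusted p = 0.066) and that of *Pcsk2* from -0.70 to -0.49 (unadjusted p = 0.022), so both missed the unadjusted threshold. *Sorcs3* went from -1.33 to -1.18 (unadjusted p = 0.0034) and stayed past it, as did *Pde1a* at -0.87 (unadjusted p = 0.009). None of these 8 passed after adjustment over all genes.

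*Fth1*, the ferritin heavy chain that stores iron, stood at 67.6, 151, 40.1 and 40.6 CPM, and *Cst3*, cystatin C, at 49.2, 111, 31.3 and 24.9 CPM. In both genes WT replicate 2 was the highest library, and without it the log2 differences were -0.78 and -0.85, against -1.41 (SE 0.29) and -1.49 (SE 0.31) with it. Without subclusters 6 and 8 *Cst3* stood at 30.4, 138, 31.6 and 19.5 CPM, so its genotypes then overlapped. Of 4 tested genes of the metallothionein and iron storage list, 3 were lower at the unadjusted threshold (*Mt1*, *Fth1* and *Ftl1*), against 0.779% of all genes tested. *Mt1*, a zinc-binding metallothionein, stood at 16.7, 41.6, 11.2 and 7.13 CPM and *Mt3* at 11.7, 29.6, 8.82 and 14.3 CPM. The list's sum in all other nuclei was 139, 357, 106 and 80.2 CPM, with the same library highest. Free RNA and the members' own transcripts were not separated, and its part in these values was not tested.

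Of 54 tested ribosomal protein genes, 5 were lower in HET at the unadjusted threshold (*Rpl24*, *Rpl37*, *Rpl9*, *Rps27a* and *Rps29*) and 0 higher, against 0.779% lower of all genes tested, with a median log2 difference of -0.70. *Rpl37* stood at 18.4, 38.3, 8.82 and 8.55 CPM. The list's sums given above overlapped between genotypes, since WT replicate 1 lay below HET replicate 1. Marker lists of other cells also held lower genes, beside the same 0.779% of all genes tested. They were 2 of 3 tested genes of the astrocyte list (*Slc1a2* and *Aldoc*), 1 of 3 of the excitatory list (*Sv2b*) and 2 of 4 of the subpallial list (*Meis2* and *Foxp2*). Of the oligodendrocyte list 1 of 2 tested genes was lower, with a median log2 difference of -1.85, and none of these lists held a higher gene. Subclusters 6 and 8 held 63.3% of the UMIs of *Meis2*, 64.9% of *Foxp2*, 64.8% of *Sv2b* and 42.5% of *Slc1a2*, against 12.3% of *Aldoc*. When they were left out the log2 differences were -1.54 for *Meis2* (unadjusted p = 0.014), -1.06 for *Foxp2* (unadjusted p = 0.066), -1.36 for *Sv2b* (unadjusted p = 0.0105), -0.92 for *Slc1a2* (unadjusted p = 0.058) and -1.50 for *Aldoc* (unadjusted p = 0.011), so these 5 missed the unadjusted threshold. *Slc1a2*, the main astrocytic glutamate transporter, stood at 66.7, 130, 44.1 and 45.6 CPM. Of the metallothionein, ribosomal and glial genes, none passed after adjustment.

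**Figure D5:**
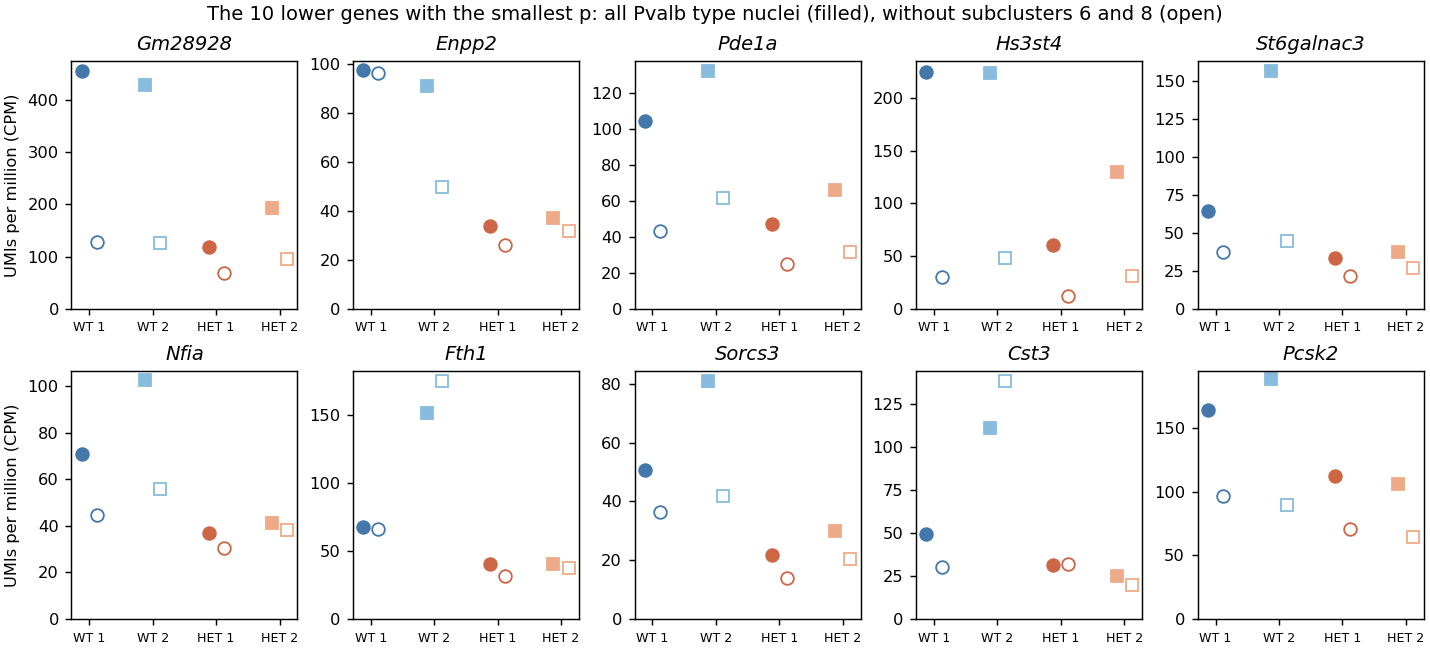
Levels in CPM of the 10 genes with the smallest p among those lower in HET, with 1 point per library, in all Pvalb type nuclei (filled) and without subclusters 6 and 8 (open). *Gm28928* falls from 455 and 428 to 129 and 127 CPM in WT when these groups are left out, whereas *Fth1* remains highest in WT replicate 2.

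The higher genes with the smallest p were *4930587E11Rik*, *Rtl1*, *Tacr1*, *Ahr*, *2900093K20Rik*, *Tm6sf1*, *Mapk1ip1*, *1700024B18Rik*, *Srr* and *Myadml2os*, none of them past the adjusted threshold. *Tacr1*, the substance P receptor, stood at 8.34, 7.66, 24.1 and 19.95 CPM (log2 difference 1.42, SE 0.39). *Ahr*, the aryl hydrocarbon receptor, stood at 67.6, 56.9, 100.3 and 99.0 CPM (0.65, SE 0.18), and *Srr*, the enzyme that makes D-serine, at 45.0, 43.8, 81.8 and 63.4 CPM. *Rtl1*, an imprinted gene derived from a retrotransposon, stood at 20.9, 29.6, 47.3 and 53.4 CPM. The 4 noncoding genes *4930587E11Rik*, *1700024B18Rik*, *2900093K20Rik* and *Myadml2os* overlap other genes, and transcripts of overlapping genes may be counted together. All 10 stayed higher in HET when subclusters 6 and 8 were left out, and *Rtl1* alone (log2 difference 0.90, SE 0.29, unadjusted p = 0.0087) kept the unadjusted threshold. *Tacr1* was then at 1.03 (unadjusted p = 0.023), *Ahr* at 0.50 (unadjusted p = 0.016) and *Srr* at 0.71 (unadjusted p = 0.013).

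Lists that describe the type are given here by their counts. In HET minus WT, 0 of 14 fast-spiking channel genes, 0 of 11 GABA-A receptor subunits, 0 of 17 glutamate receptors, 0 of 15 adhesion genes and 0 of 12 independent Pvalb type markers passed the unadjusted threshold in either direction. Of all genes tested 0.201% were higher and 0.779% lower, so a count of 0 in lists of this size lies near the background. *Kcnc1* stood at 280.3, 389, 399 and 388 CPM and had a log2 difference of 0.23 (SE 0.15). *Kcna1* stood at 100.9, 141, 153 and 163 CPM, with a log2 difference of 0.39 (SE 0.17, unadjusted p = 0.036). *Ppargc1a* stood at 276, 309, 329 and 368 CPM (0.24, SE 0.14). *Erbb4* differed by 0.04 (SE 0.17). With 2 libraries per genotype, differences of the size of these standard errors were not detectable.

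Whether the genotype difference was the same in Sst type nuclei was tested with a term for type by genotype in edgeR. At an unadjusted p under 0.01, 34 genes (0.428%) differed upward and 79 (0.994%) downward of 7944, and 5 passed after adjustment. *Gm28928* stood at 459, 552, 483 and 544 CPM in Sst type nuclei, where the genotypes overlapped, and the difference between the types was -1.58 on the log2 scale (SE 0.18, adjusted p = 6.4e-06). *Fam19a1*, a small secreted protein, *Pde1a* and *St6galnac3* were likewise relatively lower in the HET members, with differences of -1.80, -1.05 and -1.64. *Erbb4* was the exception, with a difference of 0.62 (SE 0.11, adjusted p = 0.017). It differed by 0.04 (SE 0.17) between genotypes in the members and by -0.59 (SE 0.18) in Sst type nuclei, where it stood at 2100, 1681, 1300 and 1189 CPM. Without subclusters 6 and 8, 81 genes passed the unadjusted threshold of the edgeR test and 0 the adjusted, with 417 at an unadjusted p under 0.05.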

How the data were processed

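The authors deposited unnormalized UMI counts for each called nucleus, made with Cell Ranger 5.0.0 on mm10. A nucleus was kept when its UMIs lay between 500 and 50000, its genes exceeded 200 and its mitochondrial share was below 5%. The members and all 26 gene lists were chosen with earlier results of these data known, so they are not independent of them. Of 31053 gene rows, 30934 matched GENCODE mouse release 21, which gave positions.

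UMIs were summed per library and type and tested with edgeR 4.0.16 (TMM, quasi-likelihood, two-sided, Benjamini-Hochberg) in R 4.3.3. The study used edgeR's likelihood-ratio test, tried here as an alternative. A gene was tested when 10% or more of the nuclei on either side held it and its counts reached 10; the 10 rule genes stayed in library sizes. P-values measure the spread between libraries, which may be partly technical. Genes named were the 10 with the smallest p per direction between genotypes without overlap, the 10 largest changes per direction (same sign in 4 libraries, at least 20 CPM between types), the 5 smallest p of the type by genotype term, the 10 most abundant, listed genes and *Csf1r*. List counts between types use genes detected in 10% or more of the nuclei of both types, a choice made after seeing the data. Lists are described by counts and medians, and some of their genes are not reported here. Subclusters used scanpy 1.11.5 (1000 variable genes, 10 components, 15 neighbours, resolution 0.5, seed 1). Scrublet scores were high for 0.8% per 1000 nuclei of a library. DESeq2 1.42.0, other scalings and filters, thinning, stricter membership, doublet removal, the replicate block and leave-one-out were alternatives. The tests were tested on simulated data.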

Additional observations from a re-analysis of the deposited data

Results flagged for a closer look

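The differences between genotypes in Pvalb type and Sst type nuclei that passed edgeR's adjusted threshold are noted again here because the 2 types differed by a test of the difference itself. They were *Gm28928* (-1.58 on the log2 scale), *Fam19a1* (-1.80), *Erbb4* (0.62), *Pde1a* (-1.05) and *St6galnac3* (-1.64). Without subclusters 6 and 8 they were -0.71, -1.36, 0.56, -0.86 and -0.80 in the same order, and none of these passed after adjustment.

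In 60 log2 ratios between types or between members with and without *Pvalb*, 2 had a library far from the other 3, as chance gives in about 1 in 20 groups. For *Adamtsl5*, a secreted protein of the ADAMTS-like family, HET replicate 2 had a log2 ratio of Pvalb over Vip type of 3.13, while the other libraries lay between 4.65 and 4.83. Its Vip type counts were 0, 0, 0 and 1 UMI by library, so these ratios are set by the 1 CPM added to both sides and the gap rests on a single UMI. For *Dcc*, the netrin receptor, WT replicate 1 had a log2 ratio of members with over without *Pvalb* of -1.61, while the others lay between -0.86 and -0.81.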

How the results depend on the processing

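Genes between genotypes at an unadjusted p under 0.01 numbered 29 by DESeq2, 139 without the detection filter, 46 after thinning, 133 with the replicate block and 51 without subclusters 6 and 8, an alternative chosen after seeing the data. After adjustment they numbered 21 by edgeR's likelihood-ratio test, 1 by DESeq2, 0 after thinning (212 at an unadjusted p under 0.05), 1 with at least 6 marker UMIs, 1 with at least 1 *Pvalb* UMI, 0 with doublets removed (271), 0 without subclusters 6 and 8 (280) and 41 with the replicate block. Same-numbered libraries did not deviate together (r = -8.5e-05), so the block pairs them by number alone. Leaving out each library gave 66 to 280 and, after adjustment, 12 to 123, with the lone library of a genotype assumed to vary like the other pair. Without WT replicate 1 there were 276 (60 higher, 216 lower), and without WT replicate 2 there were 280 (169 higher, 111 lower), with 49 shared with all libraries.

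Without the detection filter, 1205 genes separated Pvalb from Sst type and 1663 Pvalb from Vip type. Members with and without *Pvalb* differed in 26 genes by *Eya4* and *Btbd11* alone, an alternative chosen after seeing the data, 5 by DESeq2, 9 after thinning and 10 to 57 with a library left out. The type by genotype term called 204 without the detection filter and 56 after thinning. The difference in share was 0.147 percentage points after thinning, 2.87 among GABA nuclei and 0.217 with at least 1 *Pvalb* UMI. These shares differ in size, and the ratios of HET to WT means were 1.38, 1.78 and 1.63, against 1.54 for all kept nuclei. Among the genes named for the smallest p or the largest changes, 0 of the alternatives reversed a direction, and those between types all stayed past their thresholds. The threshold was lost in 69 of 295 values between genotypes, in 69 of 205 between members with and without *Pvalb*, and in 5 of 45 of the type by genotype term. Depth limits the rest: a count of 0 over all members allows up to 0.630 CPM. The causes of these shifts were not tested.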
